A study of Homo sapiens with 15 samples.

Results

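The regions described here are 3′ end counting regions of human genes in which more than 5% of the reads carried a T-to-C mismatch although their RNA had not been alkylated. A region was taken when it held at least 100 reads summed over the 3 No_alkylation libraries and when the summed reads with a T-to-C mismatch (T>C reads) made up over 5% of them. The regions were thus chosen by measured values, the read and T>C read counts of the No_alkylation libraries. The rule selected 420 of the 68625 counting regions, or 2.75% of the 15254 regions that reached 100 reads. They carried 403 distinct gene names, and 407 of the 409 that could be matched to 1 RefSeq gene belonged to protein-coding genes.

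In SLAM-seq, cells take up 4-thiouridine in place of uridine, and newly made RNA therefore carries the thiol base. Iodoacetamide alkylates that base, reverse transcriptase then reads it as cytosine, and T>C reads mark new transcripts. Without alkylation this step is missing, but the No_alkylation libraries are also listed with 45 min of label. Fixed differences between the cells and the reference genome, RNA editing, sequencing errors and reads placed at the wrong locus are known to give mismatches in such libraries. Which of these applies to any region below was not tested, and neither was whether unalkylated 4-thiouridine adds to them.

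The libraries came from U2OS, a human osteosarcoma line. Asynchronous cells received 4-thiouridine and EdU for 45 min, were fixed with glyoxal and methanol, and were sorted by EdU and DNA content, although the series title speaks of synchronised cells. The groups were G1, Early_S, Late_S and G2, whose RNA was alkylated, and No_alkylation, with 3 libraries each. Which sorted cells went into No_alkylation is not stated in the labels, and neither is the origin of the replicates in separate cultures. P-values therefore cover the spread between these libraries, which may be technical. Libraries were made with a 3′ end protocol from 500 ng of RNA and held between 16096695 and 21803972 counted reads. The T>C reads numbered 1812606 to 4037464 in alkylated libraries and 175212 to 182253 in No_alkylation libraries. Of the fixed markers, all 9 mesenchymal genes had reads and summed to 5771 to 7762 CPM per library, with COL1A2 at a median of 0. The 5 blood markers summed to at most 0.463 CPM, while KRT8 and KRT18 brought the epithelial sum to 730 to 1935 CPM. The study's groups hold cells of 1 line, and a bulk library cannot separate the number of cells from the RNA per cell.

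The T>C share without alkylation ranged from 5.02% to 96.4% over the 420 regions, with a median of 10.3% and quartiles of 6.70% and 20.1%. In 203 regions it lay between 5% and 10%, in 111 between 10% and 20%, in 77 between 20% and 50%, and in 29 above 50%. The other 14834 regions with enough reads had a median of 0.374%. These shares chose the regions and are given as a description. Just inside the threshold lay FAM198B (5.10%), WNT10B (5.06%), DPH6 (5.03%) and FRAS1 (5.02%). Just outside lay MND1 (5.00%), NOTCH1 (4.97%), TRPC1 (4.92%) and GOLGA5 (4.90%). The 95% Wilson interval of the summed share lay wholly above 5% in 290 of the 420 regions, and it reached above 5% in 297 regions that were not taken. Such intervals cover counting error only, since reads without molecular identifiers are not independent molecules.

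Minus-strand genes held 374 of the 420 regions and plus-strand genes 46, although the 15254 regions with enough reads were divided nearly evenly, 7451 on the minus and 7803 on the plus strand. The rule thus took 5.02% of minus-strand and 0.590% of plus-strand regions. Above a share of 10% there were 213 minus-strand and 4 plus-strand regions, and above 20% there were 106 and 0. The highest plus-strand share was 15.8%. With the 420 regions left out, the summed No_alkylation share was 0.779% ± 0.018 on the minus strand and 0.673% ± 0.019 on the plus strand (SD, n = 3). The strands also differed after alkylation, where the same sums without the 420 regions were 10.9% ± 0.076 and 8.86% ± 0.10 in Late_S and 24.7% ± 0.290 and 19.9% ± 1.17 in G1 (SD, n = 3). The minus strand was higher in every one of the 15 libraries, and the reason was not tested.

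**Figure D1:**
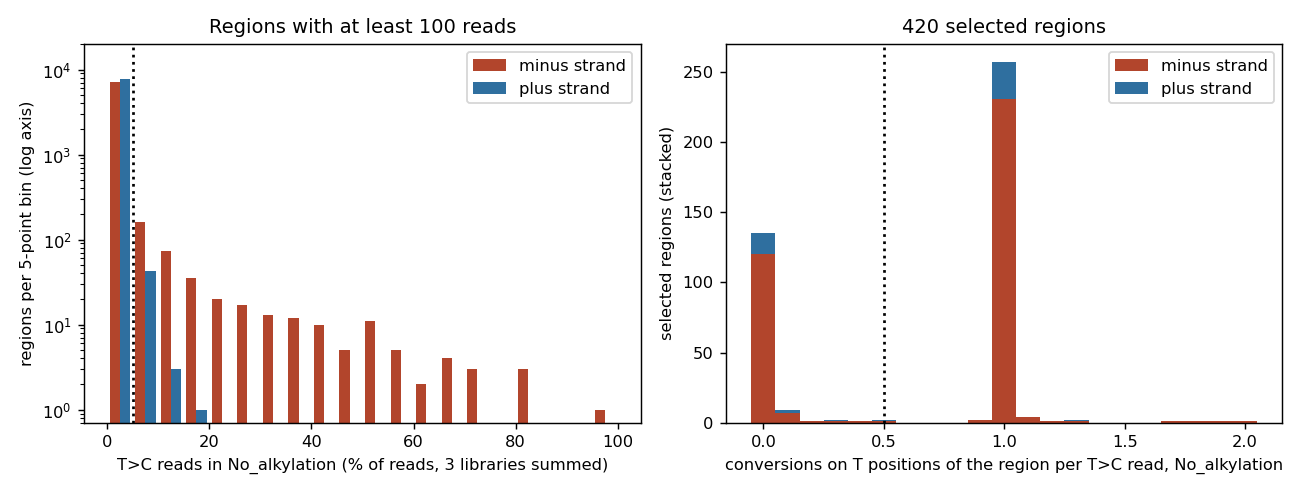
The left panel counts regions with at least 100 reads in No_alkylation by their T>C share (percent of reads, 5-point bins, logarithmic count axis), minus strand beside plus strand, with the 5% threshold dotted. The right panel stacks the 420 regions by conversions counted on their own T positions per T>C read, with the 0.5 division dotted. Shares above 20% occur on the minus strand alone, and the regions fall near 0 or near 1 conversion per read.

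A second property that the rule did not use divided the regions. The files count T>C reads per region and, separately, conversions that fall on T positions inside the region. In 259 regions the No_alkylation libraries had between 0.95 and 1.1 such conversions per T>C read, that is, about 1 mismatch per read inside the region. In 141 regions there were under 0.1, so that the reads overlapped the region while their mismatch was not counted in it. Divided at 0.5, a value chosen after the distribution was seen, 272 regions held their conversions and 148 did not. Among other regions with any T>C read, 351 of 10941 (3.21%) fell under 0.5. The 148 regions with uncounted conversions were short, with a median length of 114.5 bases, against 1069 bases for the 272. They lay a median of 13732 bases upstream of the RefSeq 3′ end of their gene, against 0 bases, and their genes had a median of 8 counting regions, against 2.5. Their median share was 17.0%, against 8.32%. A few regions had more than 1 conversion per T>C read. MED19, a Mediator subunit, had 1.73 over 434 T>C reads, and HLA-DQB1, a class II histocompatibility chain, had 1.18 over 160.

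The shares were not all alike between the 3 No_alkylation libraries. Of the 420 regions, 178 exceeded 5% in each library, and in 130 at least 80% of the T>C reads came from 1 library. Depth went with this: of the 111 regions with at least 1000 reads, 80 exceeded 5% in each library, and 1 drew 80% of its T>C reads from 1 library. Of the 106 regions above 20%, 89 exceeded 5% in each library. On the plus strand 4 of 46 did so, and 26 of 46 rested on 1 library. Choosing regions by the same rule from 2 libraries gave 385 to 390 regions, of which 205 to 209, between 53.1% and 54.0%, exceeded 5% in the library that had been left out.

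The deepest region belonged to RPS29, a protein of the small ribosomal subunit (chr14:49583572-49583666, minus strand, hg38). Its T>C share was 25.1%, 23.5% and 24.4% in G1, 22.4%, 22.2% and 24.3% in Early_S, 22.5%, 23.0% and 24.3% in Late_S, 23.1%, 22.3% and 23.3% in G2, and 22.7%, 21.5% and 24.3% in No_alkylation. Each phase overlapped No_alkylation, and the G1 libraries lay just above those of G2. It held 47913 T>C reads of 209747 without alkylation, and only 0.0175 conversions per T>C read were counted within its 95 bases. RPL30, of the large subunit (chr8:98041721-98041850, minus), had 17.2%, 18.6% and 17.9% in Late_S and 23.5%, 21.8% and 20.6% in G1, with 16.1%, 15.1% and 16.5% in No_alkylation. The Late_S values lay below G1 and above No_alkylation. FAU, which encodes ribosomal protein S30 fused to a ubiquitin-like domain (chr11:65120628-65121491, minus), had 9.57%, 9.43% and 9.25% in Late_S and 13.3%, 12.9% and 11.8% in G1. Without alkylation it had 6.79%, 6.46% and 6.51%, below every alkylated library. These 3 regions were the only ones among the 139 ribosomal protein regions with enough reads.

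The highest share belonged to NACA, the alpha chain of the complex that meets nascent polypeptides at the ribosome (chr12:56714381-56714439, minus). Its share was 98.4%, 95.3% and 95.8% in G1, 95.4%, 97.1% and 95.1% in Early_S, 94.2%, 95% and 96.3% in Late_S, 96.4%, 95.5% and 89.5% in G2, and 96.1%, 97% and 96.1% in No_alkylation. Nearly every read carried a mismatch in every library. A region of NACA 827 bases away, 17 bases long, had 0 T>C reads of 425 without alkylation, which allows a share of up to 0.706%. Its pooled share in G1 was 35.5%, from libraries of only 34, 79 and 87 reads. In G2 its libraries differed widely, at 60%, 0% and 0.763%. The 5 other NACA regions with enough reads, this one among them, together had a share of 12.04% in G1. Without alkylation they had 0.488% of 36901 reads. The retrogene NACA2 (chr17:61590426-61590532, minus) had a No_alkylation share of 23.1%.

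UBXN6, a cofactor of the p97 ATPase (chr19:4444999-4445623, minus), had a share of 67.9%, 67.4% and 77.5% in Late_S, 74.1%, 73.5% and 74.1% in G1, and 70.1%, 74.5% and 64.5% in No_alkylation. LIG1, the ligase that joins Okazaki fragments (chr19:48115445-48115732, minus), had 44.3%, 47.4% and 42.1% in Late_S, 49.4%, 49.5% and 53.4% in G1, and 47.1%, 49.6% and 59.0% in No_alkylation. TAF6, a subunit of the basal factor TFIID (chr7:100107070-100107623, minus), had 61.5%, 51.5% and 69.8% in Late_S, 73.4%, 70.0% and 64.7% in G1, and 68.3%, 43.8% and 48.4% in No_alkylation. In all 3, at least 1 alkylated library lay within the range of the No_alkylation libraries. AP1M2, a subunit of an epithelial clathrin adaptor (chr19:10572671-10573065, minus), had 30.9%, 29.3% and 23.5% in Late_S, 27.3%, 34.5% and 29.3% in G1, and 29.9%, 33.8% and 28.7% in No_alkylation, with the groups again overlapping.

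Other regions carried a high share without alkylation and a further rise after it. ATAD2, an AAA ATPase with a bromodomain that is a known E2F target, held 4 regions, the most of any gene, all with uncounted conversions. The deepest (chr8:123380529-123380660, minus) had 25.4%, 33.6% and 25.6% in Late_S, 62.3%, 63.8% and 67.1% in G1, and 17.4%, 19.2% and 20.2% in No_alkylation. No library of one of these 3 groups overlapped another group. HLA-B, a class I histocompatibility chain (chr6:31353872-31354296, minus), had 16.2%, 18.5% and 18.6% in Late_S, 18%, 18.7% and 18.2% in G1, and 7.43%, 8.45% and 7.98% in No_alkylation. Both phases lay above No_alkylation and overlapped each other.

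**Figure D2:**
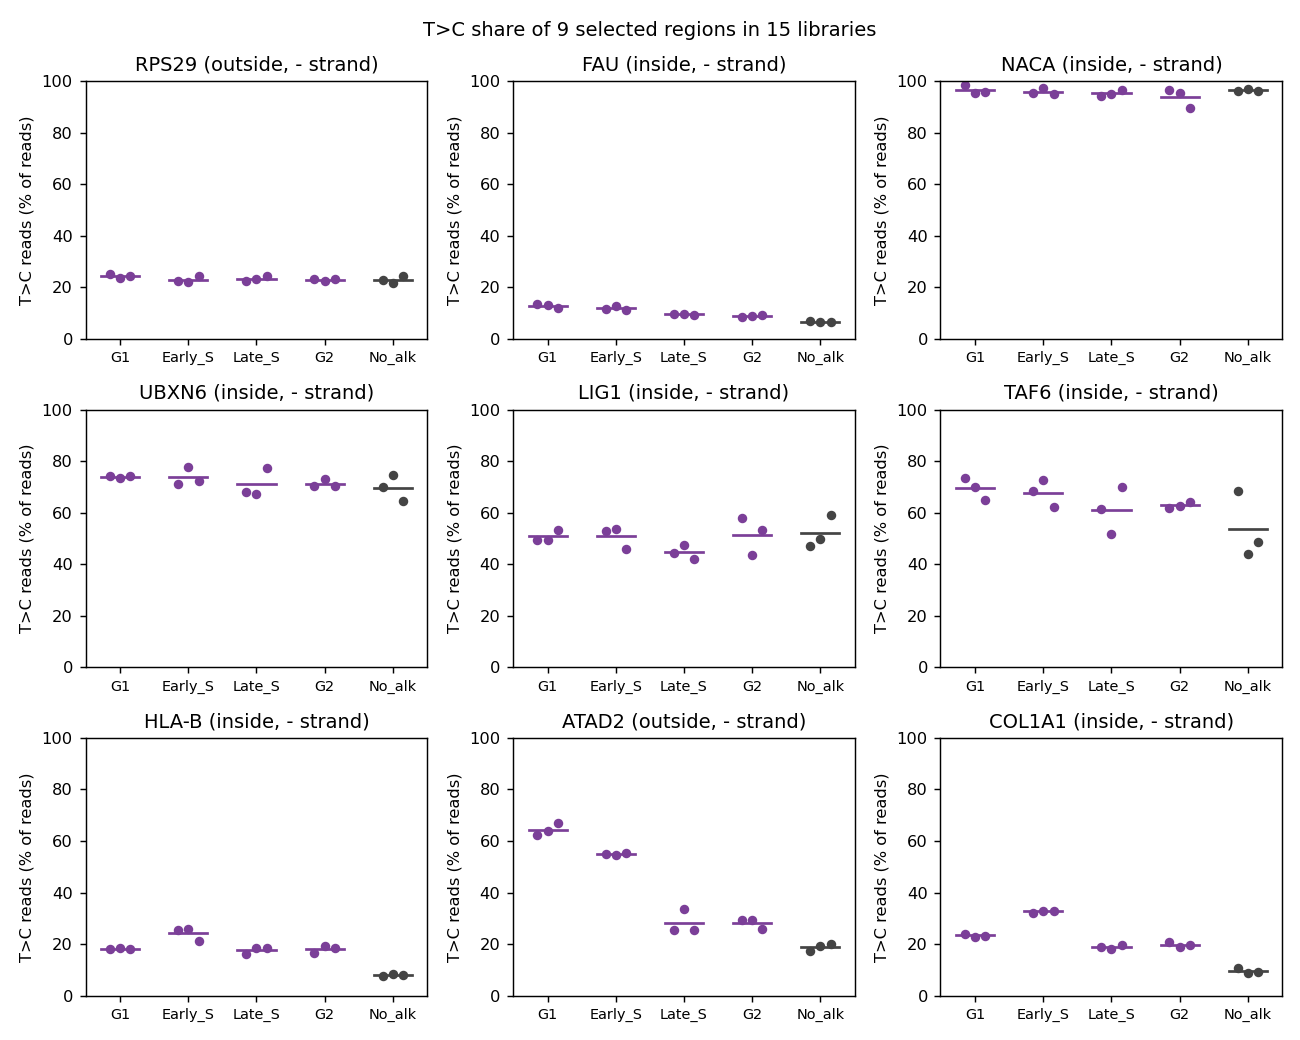
Each panel shows 1 region, with the T>C share (percent of reads) of the 3 libraries of each group as points and their mean as a bar, alkylated phases in purple and No_alkylation in grey. "Inside" and "outside" say whether the conversions of the No_alkylation reads were counted in the region. NACA, RPS29, UBXN6 and LIG1 stay near their No_alkylation level in every phase, while the ATAD2 region is highest in G1 and the COL1A1 region in Early_S.

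The same gene often had both kinds of region. Of the 420 regions, 229, from 213 genes, had another region of the gene that reached 100 reads and was not taken. The median No_alkylation share was 13.4% in the 229 regions. For those other regions, pooled within each gene and counted once per selected region, the median was 0.532% and the highest pooled share 4.03%. The rule holds each of the other regions to 5% or less. The region that was taken had fewer reads than those other regions of its gene summed in 199 of 229 cases. Such a sum often covers several regions, so this count does not compare single regions. Of the 229, 133 had uncounted conversions. UBE2J2, a membrane-bound ubiquitin-conjugating enzyme, showed 84.8% of 237 reads in a region of 81 bases and 1.05% of 7530 reads in a region 557 bases away. ATG3, an enzyme of autophagosome formation, showed 73.0% of 1169 reads and 0 of 294 reads in regions 2172 bases apart, and a count of 0 there allows a share of up to 1.02%. METTL5, an rRNA methyltransferase, showed 74.3% of 280 reads in a region of 4 bases, against 0 of 146 reads 4032 bases away, which allows up to 2.05%. In G1 the median share was 45.6% in the 229 regions and 31.7% in the other regions of their genes, again pooled within each gene.

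The share of multimapped reads in No_alkylation exceeded 10% in 23 of 420 (5.48%), against 952 of 14834 other regions (6.42%). It exceeded 50% in 7 (1.67%), against 361 (2.43%), and was 0 in 255 (60.7%), against 6772 (45.7%). Summed over reads, 2.11% ± 0.0198 of the reads in the 420 regions and 11.2% ± 0.0636 of those in the 14834 other regions were multimapped in No_alkylation (SD, n = 3). Of the 23 regions above 10%, the deepest were PLEC, the cytoskeletal linker plectin, with 13.0% of 28228 reads, and SRP14, a subunit of the signal recognition particle, with 28% of 21860 reads. Among those above 50% were MAGED4B, CNTNAP3B, ANKRD36C, PAIP1, ANP32D and AC239799.1, and the 7 regions had between 106 and 382 reads. Regions overlapped by a counting region of the opposite strand made up 18 of 420 (4.29%), against 7.0% of the others.

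Across chromosomes, the 420 regions made up between 1.90% of the eligible regions on X and 4.10% on chromosome 9. By gene group, 2 of 7 HLA regions were among them (HLA-B and HLA-DQB1). The translation factor list gave 7 of 110, including EEF2KMT and EIF2AK1, enzymes that modify such factors. Histones gave 2 of 33 regions (H2AFV and HIST4H4) and zinc finger genes 9 of 367. Respiratory chain genes gave 4 of 127 and ribosomal proteins 3 of 139. Of 57 regions of G1/S and E2F target genes, 4 were among the 420, all in ATAD2. The G2/M list gave 2 of 61 (AURKB and KIF23), and the list of replication fork and repair genes gave 3 of 73 (LIG1 and 2 regions of WDHD1). Of 26 regions in genes known for A-to-I edited inverted Alu repeats in the 3′ UTR, 1 was among them, DNAJC2, with uncounted conversions. Such editing alters A and not T in the transcript, so this overlap says nothing about the source of T-to-C mismatches, which was not tested. The remaining lists gave 2 of 65 proteasome regions, both PSMD6, and 1 each for hnRNP and SR proteins (SRSF10, of 85), aminoacyl-tRNA synthetases (QARS, of 67), heat shock proteins (DNAJC2, of 100), transcription initiation factors (TAF6, of 58) and p97 cofactors (UBXN6, of 26). Actins and tubulins (33 regions), immediate early genes (21) and glycolysis (21) gave 0. All eligible regions together gave 2.75%, and the lists are small.

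The alkylated libraries played no part in the choice, and their values are compared between phases. Mismatches of the kind that chose the regions can be counted in these libraries too. A smaller fall in share, a share above the bulk or a higher scaled T>C level can thus come from the choice itself. Pooled over the 3 libraries of a phase, the median share of the 420 regions was 44.3% in G1, 39.1% in Early_S, 24.1% in Late_S, and for G2 23.0%. The other regions had medians of 25.3%, 19.2%, 9.65% and 9.09% in the same order. On the minus strand alone the medians were 48.2%, 44.1%, 27.1% and 26.6% in the selected regions. They were 34.6%, 27.2%, 11.9% and 12.2% in the other minus-strand regions. The remaining comparisons in this paragraph were not split by strand. Of the regions with reads in the phase, 381 of 419 (G1), 354 of 416 (Early_S), 300 of 419 (Late_S) and 292 of 417 (G2) had a share above that of No_alkylation. All 3 libraries of the phase lay above all 3 No_alkylation libraries in 225, 191, 132 and 123 regions in that order. Neither count was made over the other regions, so neither can be set against them. Over the 298 regions with at least 100 reads in every phase, the median ratio of the Late_S share to the G1 share was 0.625, against 0.427 over 12941 other regions. It was 0.584 for regions whose conversions were counted within and 0.770 for the rest. Late_S reached at least 80% of the G1 share in 87 of 298 regions (29.2%), against 10.9% of the others. In all 4 phases, 8 of 298 (2.68%) stayed within 5 points of their No_alkylation share, against 310 of 12941 others (2.40%). This comparison and the correlations that follow use the shares that chose the regions, so they are descriptions. In the others the rule holds that share to 5% or less. Across these 298 regions, which share libraries and reads of the same depth, the No_alkylation share correlated with the phase share at Pearson's r = 0.60 and Spearman's rho = 0.55 in Late_S and at r = 0.39 and rho = 0.31 in G1.

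A background-subtracted share was computed as the share minus that of No_alkylation, divided by the part of reads that carried no mismatch there. The rule took regions for a high No_alkylation share, so a share that counting error had raised was more likely to be taken, and subtracting it lowers the value by construction. The subtracted shares, and the counts of regions above No_alkylation, are therefore descriptions and no test against the other regions. For the 374 minus-strand regions the median by library was 34.4% ± 1.19 in G1, 26.2% ± 0.907 in Early_S, 9.95% ± 0.418 in Late_S, and for G2 10.7% ± 1.24. The other minus-strand regions had 33.3% ± 0.603, 25.8% ± 0.667, 10.6% ± 0.0895 and 10.6% ± 0.724 in the same order (SD, n = 3). The library values of both sets overlapped in G1, Early_S and G2 but not in Late_S. For all 420 regions pooled over libraries the medians were 29.5%, 23.6%, 9.06% and 9.05%. In the 45 plus-strand regions with reads they were 13.0% in G1, 4.74% in Early_S, and below 0 in Late_S (-0.84%) and G2 (-4.0%), where the pooled share was under that of No_alkylation. Of the 46 plus-strand regions, 26 owed at least 80% of the T>C reads that chose them to 1 library, so values below 0 can come from the choice itself. The lower quartile of all 420 regions was -1.51% in Late_S, and for G2 -2.29%.

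**Figure D3:**
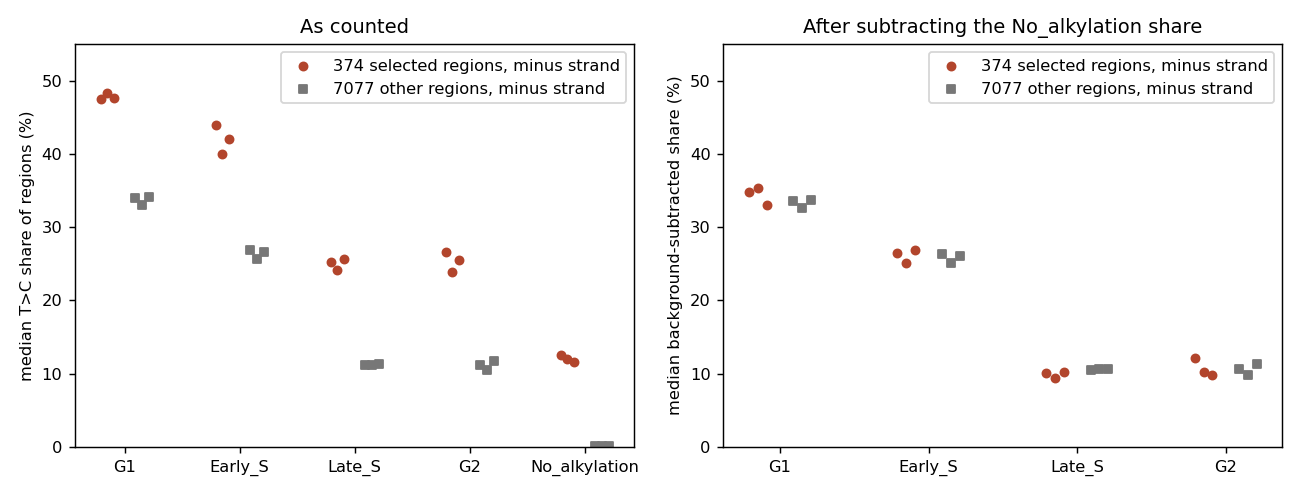
Each point is the median over minus-strand regions in 1 library, for the selected regions (circles) beside the other regions (squares), as counted on the left and after subtracting the No_alkylation share on the right (percent). As counted, the selected regions lie above the others in every group. After subtraction of the values that chose the regions, the libraries overlap in G1, Early_S and G2.

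Among regions with at least 100 reads in G1, the 6 highest subtracted shares there belonged to JMJD1C, WDR47, BCL10, ADAMTS1, CD58 and EXOC8. EXOC8, an exocyst subunit, had 93.3%, 89.7% and 95.3% in Late_S, 91.8%, 93.1% and 93.0% in G1, and 8.43%, 22.5% and 10.4% in No_alkylation. Its share was near its ceiling in both phases. BCL10, an adaptor of NF-kappaB signalling, had 64.1%, 45.6% and 54.1% in Late_S, 94.3%, 92.5% and 95.2% in G1, and 11.3%, 2.62% and 7.28% in No_alkylation, with no overlap. The zinc finger gene ZNF468 had 93.4%, 95.1% and 78.6% in Late_S, 94.8%, 87.0% and 86.9% in G1, and 15.2%, 8.04% and 9.18% in No_alkylation. The 6 lowest, with a G1 share under the No_alkylation share, belonged to CDK5RAP2, MRPL13, MAGED4B, RBM39, CLTB and OCIAD2, all with uncounted conversions. For MRPL13, a mitochondrial ribosomal protein, the 3 libraries of G1 had 55.9%, 56.9% and 55.3%, against 67.8%, 70.4% and 58.4% in No_alkylation. CLTB, a clathrin light chain, had T>C reads in 1 library of G1 (21.2%) and in 1 library of No_alkylation (50%), so its value rests on single libraries.

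The T>C share was tested across the 4 phases by edgeR's quasi-likelihood F-test, with Benjamini-Hochberg adjustment over all 18803 regions tested and calls at an adjusted p under 0.05. It changed in 148 of 410 selected regions tested (36.1%), where 47.3% of all regions and 52% of minus-strand regions were called, and in 174 at an unadjusted p under 0.05. For Late_S over G1 the ratio of T>C to other reads was higher in 1 and lower in 128, where 0.0957% and 43.1% of all regions, and 0.106% and 47.3% of minus-strand regions, were called. The median log2 change was -1.17, against -1.58 over all regions. Among other regions with at least 100 No_alkylation reads, 66.1% on the minus and 52.4% on the plus strand were called. Of the 144 tested regions with uncounted conversions 28 were called by edgeR and 17 by DESeq2. Of the 41 tested on the plus strand 4 were called, where 42.5% of all plus-strand regions were. Their median log2 change was -1.79, against -1.46 over all plus-strand regions. Selected plus-strand regions had a median of 141.5 No_alkylation reads, against 980 in other eligible plus-strand regions. All 420 had 324.5, against 986 in the others. Fewer reads make a call harder, so call rates do not compare the size of the change. PUM2, an RNA-binding repressor, gave -2.98 ± 0.35 on the log2 scale (SE, adjusted p = 8e-10 by edgeR) and the deepest ATAD2 region -2.22 ± 0.22 (adjusted p = 7.1e-12). RFK, riboflavin kinase, gave -2.10 ± 0.25 and MIS18A, which acts in centromere assembly, -1.93 ± 0.25, both called by the same test. RPS29, NACA, UBXN6, LIG1, TAF6 and AP1M2 were not called, and the RPS29 estimate was -0.09 ± 0.07.

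A second fit scaled T>C reads and other reads separately, so that 0 is the bulk of regions. By this fit 65 of 410 (15.9%) changed, with 12.4% called among all regions and 15.7% on the minus strand, and 114 at an unadjusted p under 0.05. Late_S over G1 was higher than the bulk in 37 (9.02%), where 2.46% of all and 2.44% of minus-strand regions were called, and lower in 13 (3.17%), where 3.9% of all and 5.29% of minus-strand regions were called. Among other regions with at least 100 No_alkylation reads, 20% on the minus and 11.2% on the plus strand were called across phases. The median was 0.28, against -0.14 over all regions and -0.28 over other minus-strand regions with enough reads. RPS29 stood at 1.37 ± 0.07 (SE, adjusted p = 1.6e-22 by edgeR), SRP14 at 1.18 ± 0.11, RPL30 at 1.09 ± 0.10, COL1A1 at 1.06 ± 0.08, HLA-B at 1.41 ± 0.16 and AP1M2 at 1.27 ± 0.18, each above the bulk and called. UBXN6 stood at 1.26 ± 0.22, LIG1 at 1.11 ± 0.24, TAF6 at 0.94 ± 0.21 and TXN, thioredoxin, at 1.14 ± 0.18. PUM2 (-1.52 ± 0.33) and BCL10 (-2.25 ± 0.51) fell below the bulk. Of the 144 regions with uncounted conversions 15 were higher and 1 was lower, and of the 266 others 22 were higher and 12 lower. The 15 became 6 without G1 replicate 1, Late_S replicate 1 or Late_S replicate 3, 8 without G1 replicate 2 and 9 without G1 replicate 3. The 22 became 12 without Late_S replicate 3, and the 12 became 6 without Late_S replicate 1 and 7 without Late_S replicate 3 or G1 replicate 2. On the plus strand, 0 of 41 were called in either direction for Late_S over G1. The 37 became 18 without Late_S replicate 3, 24 without Late_S replicate 1 and 22 without G1 replicate 1. The 13 became 6 without Late_S replicate 1 and 7 without Late_S replicate 3 or G1 replicate 2.

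COL1A1, the main collagen of bone matrix (chr17:50183289-50185501, minus), had a different order of phases. Its share was 24.1%, 22.8% and 23.3% in G1, 32.2%, 33.0% and 32.8% in Early_S, 18.7%, 18% and 19.5% in Late_S, 20.8%, 18.8% and 19.6% in G2, and 10.6%, 8.94% and 9.07% in No_alkylation. Early_S lay above every other library, and the subtracted share was 25.5% there and 15.3% in G1. The share changed across phases (adjusted p = 3.59e-16 by edgeR), also relative to the bulk (adjusted p = 6.61e-17). MKI67, the proliferation antigen Ki-67, had 38.4%, 40.8% and 43.9% in G1, 55%, 56.0% and 63.4% in Early_S, 32.4%, 32.0% and 29.8% in Late_S, 39.5%, 33.5% and 29.9% in G2, and 19.4%, 14.8% and 19.8% in No_alkylation. Early_S was again the highest phase in all 3 libraries.

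T>C reads were also tested alone. With TMM scaling, 73 of 362 tested regions changed across phases (edgeR, adjusted p under 0.05), where 12.3% of all and 12% of minus-strand regions were called, and 135 passed an unadjusted p under 0.05. For Late_S over G1, 46 rose (12.7%) and 1 fell, where 3.15% and 2.39% of all regions, and 2.95% and 2.38% of minus-strand regions, were called. Among other regions with at least 100 No_alkylation reads, 12.6% on the minus and 12.9% on the plus strand were called across phases. The median was 0.49, against -0.01 over all regions. RPS29 rose by 1.00 ± 0.06 on the log2 scale (SE, adjusted p = 5.3e-16), UBXN6 by 1.02 ± 0.13, TAF6 by 1.06 ± 0.14 and NACA by 1.20 ± 0.22, all called by the same test, while their shares of T>C reads were not called. The 46 became 29 without Late_S replicate 1 or 3, 30 without G1 replicate 1 and 31 without G1 replicate 3. In Late_S the library-wide T>C share was 10.0% ± 0.0870, against 22.3% ± 0.740 in G1 (SD, n = 3), and TMM sets the bulk of regions to 0.

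**Figure D4:**
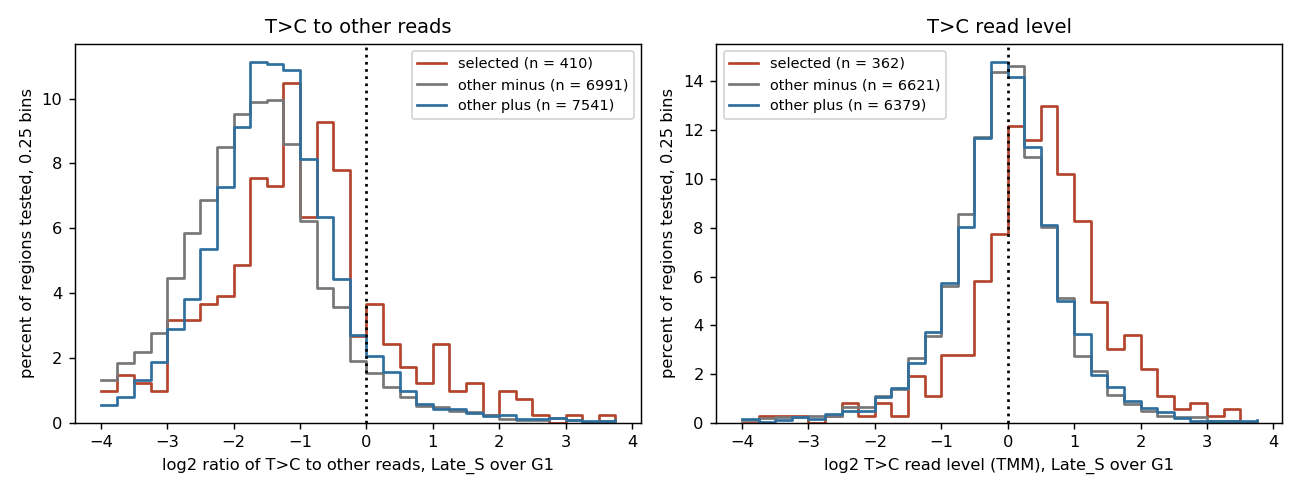
The lines give the percent of tested regions in bins of 0.25 log2 units between -4 and 4 for Late_S over G1, for the selected regions and the other minus-strand and plus-strand regions with enough reads. Left is the ratio of T>C to other reads, right the T>C read level after TMM scaling. The medians of the selected regions (-1.17 and 0.49) lie to the right of those of the others in both panels. On the left, changes below -4 are not drawn. They made up 8.29% of selected, 5.95% of other minus-strand and 4.51% of other plus-strand regions.

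The level of all reads changed across phases in 84 of 417 tested regions (20.1%; edgeR, adjusted p under 0.05), where 22.1% of all and 22% of minus-strand regions were called, and 135 passed an unadjusted p under 0.05. For Late_S over G1, 17 rose and 20 fell, where 6.02% and 6.2% of all regions, and 5.88% and 6.26% of minus-strand regions, were called, with a median of 0.03, against -0.01. Of the other regions with at least 100 No_alkylation reads, 31.4% on the minus and 31.3% on the plus strand changed across phases. The 17 became 10 without G1 replicate 3 and 11 without G1 replicate 1 or Late_S replicate 2. The 20 became 12 without Late_S replicate 1 and 13 without Late_S replicate 3 or G1 replicate 3. SUN2, a protein of the inner nuclear membrane, rose by 2.07 ± 0.21 on the log2 scale (SE, adjusted p = 1.6e-10), DEPDC1 by 1.81 ± 0.26 and MKI67 by 1.00 ± 0.13. The selected region of AURKB, the mitotic kinase Aurora B, rose by 1.59 ± 0.36. It held 555 No_alkylation reads, against 6197 in another region of the gene, to which this value does not apply. BCAT1, a branched-chain aminotransferase, rose by 0.79 ± 0.09. EIF1AD fell by 1.26 ± 0.20, ARF4, a small GTPase of the Golgi, by 0.44 ± 0.08 and PLEC by 0.43 ± 0.08. For EIF1AD the T>C share was 71.0%, 54.4% and 58.1% in Late_S, 80.7%, 81.7% and 88.1% in G1, and 32.4%, 41.1% and 37.0% in No_alkylation.

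In the alkylated libraries the 420 regions held 2.51% ± 0.0634 of the T>C reads in G1, 2.90% ± 0.0699 in Early_S, 3.96% ± 0.0558 in Late_S, and for G2 3.96% ± 0.126. In No_alkylation they held 30.0% ± 0.905 of all T>C reads and 1.94% ± 0.0254 of all reads (SD, n = 3). Late_S libraries held 3.90% to 4.01% and G1 libraries 2.44% to 2.56%, with no overlap, but 3 libraries against 3 cannot give an exact two-sided permutation p below 0.1, which is the value found. Their part of all reads was 1.84% ± 0.0135 in Late_S and 1.89% ± 0.0257 in G1. Summed over the 420 regions, the T>C share was 21.6% ± 0.426 in Late_S and 29.7% ± 0.453 in G1, and 15.7% ± 0.360 in No_alkylation. Counted as conversions on T positions in place of reads, the part in the 420 regions was 2.11% in Late_S, 1.76% in G1 and 18.1% in No_alkylation.

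**Figure D5:**
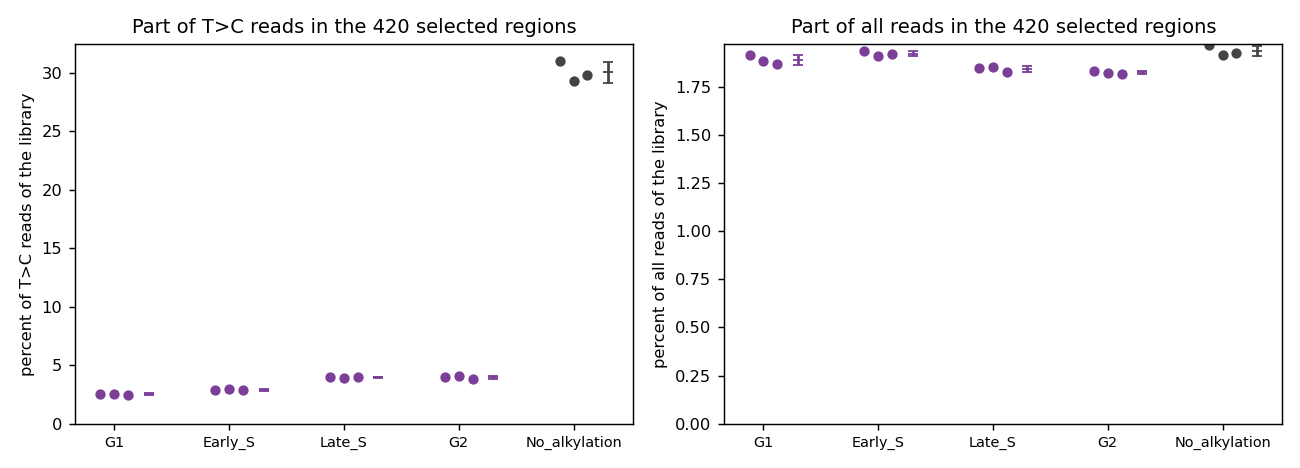
Points are libraries and bars the mean ± SD of 3. Left is the percent of a library's T>C reads that lies in the 420 regions, 2.44% to 4.05% in alkylated libraries and 29.3% to 31.0% in No_alkylation. Right is the percent of all reads there, between 1.82% and 1.97% in every library.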

How the data were processed

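Each library's table gave, for 68625 counting regions, the deposited counts of reads, T>C reads, multimapped reads, covered T positions and conversions. It also gave CPM values and a conversion rate as a fraction, both made by the authors. Per the file headers the tables came from slamdunk 0.2.4 with a merged annotation of Ensembl release 90, and the build was hg38 per the submitters' processing notes. For slamdunk's settings, such as mismatch filters or the masking of variants, the sources used here gave nothing. The deposited CPM values gave the percent of a library's reads that lie in regions and the marker levels, and the fraction was used as a check.

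Regions were selected from summed counts over the 3 No_alkylation libraries. The regions, gene lists and naming rule were chosen with earlier results of these data known. The divisions by strand and by counted conversions were chosen after the values were seen. Named regions were, among those with 1 gene name, those with the highest share, most reads, most multimapped reads, most conversions per T>C read, the 4 nearest the threshold on each side, the smallest adjusted p in each fit, the largest difference within a gene, the lowest and highest subtracted share in G1 (with at least 100 reads there, a minimum added to the rule afterwards), up to 4 per list, and UBXN6, TAF6, LIG1 and ATAD2.

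Fits used edgeR 4.0.16 in R 4.3.3 on the 12 alkylated libraries, with Benjamini-Hochberg adjustment over all regions tested and a threshold of 0.05. The share fit set T>C reads against other reads of the same library, with a term per library and the library total as scale. The fit relative to the bulk gave each kind of read its own TMM factor. Both needed a mean of 10 reads and a total of 10 T>C reads. Levels of reads and of T>C reads used TMM factors and filterByExpr. Each fit was run on simulated counts with a fixed spread. In the 2 share fits this spread was common to T>C reads and other reads. Differences in share between libraries beyond counting error were therefore not simulated. Standard errors are those of log2 changes. Alternatives left out each library, removed the filter, used RLE factors, DESeq2 1.42.0 or the replicate number as a block, and changed the selection. Gene names are those of the files. Of 411 regions with 1 gene name, 391 matched a current RefSeq symbol of GRCh38.p14, 18 an older one and 2 none. No sequence of these regions is printed, as no genome was used here. A result that needs an item withheld for evaluation is not reported here.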

Additional observations from a re-analysis of the deposited data

How the results depend on the processing

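The number of selected regions was 385 to 390 with 1 No_alkylation library left out, 723 with a threshold of 3% and 217 with 10%. Percentages of tested regions called follow. Leaving out 1 library gave 4.41% to 9.85% higher than the bulk in Late_S over G1, 2.88% to 5.04% with a lower read level and 7.57% to 12.4% with a higher T>C read level. Splits by strand and counted conversions were chosen after seeing the data. With conversions not counted in the region, 19.4% changed in share, 16.7% were lower in share in Late_S, 12.8% changed in read level and 1.35% had a lower one. On the plus strand, 9.76% changed in share, with as many lower in Late_S, 2.44% relative to the bulk, 11.4% in read level and 6.25% in T>C reads, where 42.5%, 9.11%, 22.3% and 12.6% of all plus-strand regions were called, and 0 were higher in Late_S relative to the bulk or in T>C reads. Fewer regions were tested there, and they had fewer reads, with a No_alkylation median of 141.5 against 980 in other eligible plus-strand regions. The median subtracted share in G1, Early_S, Late_S and G2 was 34.0%, 26.6%, 9.64% and 10.7% with counted conversions, 23.6%, 16.9%, 5.49% and 4.86% without, 33.4%, 26.9%, 10.1% and 11.03% on the minus strand, and 13.0%, 4.74%, -0.84% and -4.0% on the plus strand, the last 2 reversed in sign. A minimum of 200 reads gave 10.2% in Late_S. With 1 library left out the ranges were 21.0% to 24.2% in Early_S, 8.66% to 9.37% in Late_S and 6.79% to 9.20% in G2. The part of T>C signal in the regions, for G1, Early_S, Late_S, G2 and No_alkylation, was 1.76%, 1.97%, 2.11%, 2.16% and 18.1% for conversions, 2.27%, 2.64%, 3.596%, 3.603% and 27.5% with at most 10% multimapped reads, and 1.61%, 1.77%, 2.73%, 2.74% and 24.1% with a threshold of 10%. Apart from the count of conversions, these settings use fewer regions by construction. For the other changes the cause was not tested.

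Same-numbered libraries did not deviate together: their 18 correlations lay between -0.0047 and 0.036, so the numbers were not taken as pairs. With the replicate number as a block, 37.6% of tested regions changed in share, 18.3% relative to the bulk, 21.8% in read level and 19.6% in T>C reads. DESeq2 and no filter on low counts, and RLE factors in the 3 fits other than the share fit, moved none of these 4 counts by over 1.5 times. For single named regions called in the main fits, 1897 of the repeated tests kept the call and 132 lost it. Named regions without a call, and repeats in which a region was not tested, are not in this count. Some of these regions were named for their small adjusted p. Depth limits the regions with few reads, whose shares often rest on 1 library.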
